A study of Homo sapiens with 4 samples.

Results

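The genes described are 10 members of the S100 family of calcium-binding proteins, S100A2, S100A4, S100A6, S100A9, S100A10, S100A11, S100A13, S100A14, S100A16 and S100P, out of 25798 gene IDs in the deposited tables. They were taken by symbol from a given list, matched to Ensembl gene IDs, and the rows of each ID were summed in all 4 libraries. All 10 were found and all 10 passed the filter on low counts that left 17090 genes for testing. The libraries come from SW1990, an established line of human pancreatic cancer cells that the labels give as wild type, grown in DMEM with serum. Cells of 2 libraries received erianin, a plant bibenzyl known to bind tubulin, at 100 nM for 48 h. Cells of the other 2 libraries received DMSO, the solvent, for 48 h. Neither group carries an engineered allele, and the study's title gives AKT and ASK1 as the compound's targets. No label states that replicates were separate cultures, so each p-value reflects spread among these libraries, which may be technical.

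S100 proteins are small, mostly dimeric proteins of the EF-hand type. Calcium turns a helix of each subunit outward and bares a hydrophobic face, which then binds a target such as an annexin, a myosin heavy chain or p53. Some members are also released from cells and act on surface receptors, of which AGER, the receptor for advanced glycation end products, is the best known. Most of the genes lie in a cluster on chromosome 1q21, and several, S100P, S100A4, S100A6 and S100A11 among them, are known for raised levels in pancreatic ductal adenocarcinoma.

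Of the 10 genes, 9 lie on chromosome 1 and S100P lies on chromosome 4 (GRCh38, GENCODE release 29). S100A10 (151982915 to 151994390, minus strand) and S100A11 (152032506 to 152047907, minus strand) lie at one end of the chromosome 1 stretch. S100A9 (153357854 to 153361027, plus strand) comes next. It is followed by S100A6 (153534599 to 153536244), S100A4 (153543613 to 153550136), S100A2 (153561108 to 153567890), S100A16 (153606886 to 153613145), S100A14 (153614255 to 153616986) and S100A13 (153618787 to 153631360), all on the minus strand. S100P occupies 6693069 to 6697170 on the plus strand of chromosome 4.

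Promoter sequence is given because the members differ widely in level, as the next paragraphs show. The window was 300 bases around the RefSeq start site (GRCh38.p14), of which 250 lie before it and 50 after it. All 10 members had an entry. The 3 most abundant members, S100A6, S100A10 and S100A11, had 31, 32 and 22 CpG dinucleotides in this window, against a median of 14 over 35116 promoters. S100A4 had 8, S100A16 had 3 and S100A13 had 19 at a RefSeq start that lies upstream of the gene's GENCODE bounds, and S100A2, S100P, S100A9 and S100A14 had 5 each. S100A16 is thus an abundant transcript with few CpGs in this window. The letters TATAA on the coding strand, searched from 40 to 16 bases before the start after the sequences had been seen, were present in 5 of 10 members (S100A6, S100A4, S100P, S100A9 and S100A14). They were present in 3.91% of all promoters. The 150 bases before the start of the 2 highest and 3 lowest members follow, with every CpG and the TATAA in that range in capitals.
S100A6 (chr1:153535992-153536141, minus strand): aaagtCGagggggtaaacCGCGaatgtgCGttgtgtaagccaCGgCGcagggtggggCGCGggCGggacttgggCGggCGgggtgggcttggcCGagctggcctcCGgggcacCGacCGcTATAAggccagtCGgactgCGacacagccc
S100A10 (chr1:151993860-151994009, minus strand): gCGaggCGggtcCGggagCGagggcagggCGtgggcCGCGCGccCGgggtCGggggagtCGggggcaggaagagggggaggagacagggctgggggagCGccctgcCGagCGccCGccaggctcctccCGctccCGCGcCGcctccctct
S100P (chr4:6693728-6693877, plus strand): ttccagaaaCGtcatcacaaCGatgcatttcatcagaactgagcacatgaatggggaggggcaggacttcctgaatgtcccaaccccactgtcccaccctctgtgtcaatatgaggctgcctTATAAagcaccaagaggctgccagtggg
S100A9 (chr1:153357704-153357853, plus strand): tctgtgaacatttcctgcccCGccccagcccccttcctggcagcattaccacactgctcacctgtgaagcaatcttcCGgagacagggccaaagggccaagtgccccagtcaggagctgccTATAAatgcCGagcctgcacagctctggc
S100A14 (chr1:153616326-153616475, minus strand): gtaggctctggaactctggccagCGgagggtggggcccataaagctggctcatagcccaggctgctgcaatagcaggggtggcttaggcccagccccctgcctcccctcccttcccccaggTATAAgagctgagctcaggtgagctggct
These stretches hold 17 CpGs in S100A6 and 19 in S100A10, and between 1 and 3 in the 3 low members. The TATAA begins 30 bases before the start in S100A6, 28 in S100P and 29 in S100A9 and S100A14. A match is a description of the letters only, and which start sites SW1990 cells use was not analysed here.

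The libraries held 59923935 to 63336545 estimated counts each. Ductal epithelial markers were abundant, with KRT8, KRT18, KRT7 and KRT19 at 892.9 FPKM or more in every library (FPKM is fragments scaled to transcript length and library size), and 8 of 9 had a value. Acinar markers summed to 0.13 FPKM or less, blood and myeloid markers to between 0.3 and 0.54 FPKM and endothelial markers to between 0.16 and 0.4 FPKM. Fibroblast markers summed to 6.96 FPKM in DMSO replicate 1 and to between 1.9 and 2.51 FPKM in the other 3 libraries. Over all genes 7 of 17090, or 0.041%, passed an adjusted p of 0.05 (edgeR quasi-likelihood test, Benjamini-Hochberg), 2 higher and 5 lower in erianin.

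The S100 members spanned a wide range of levels in SW1990 cells, and their order was nearly the same in every library. Together they made up 0.26 to 0.272% of all counts and 0.628 to 0.651% of summed FPKM. S100A6, S100A10, S100A11 and S100A4 alone supplied 91.6 to 92.1% of the members' FPKM. S100A6 ranked 64th of all gene IDs by mean FPKM, S100A10 106th, S100A11 137th, S100A4 163rd and S100A16 348th. S100A13 ranked 1216th and S100A2 4899th, and S100P, S100A9 and S100A14 ranked 7711th, 8201st and 9547th. In this order the ranges over the 4 libraries did not overlap between neighbours down to S100P. S100P, S100A9 and S100A14 overlapped and cannot be ordered beyond their spread.

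**Figure D1:**
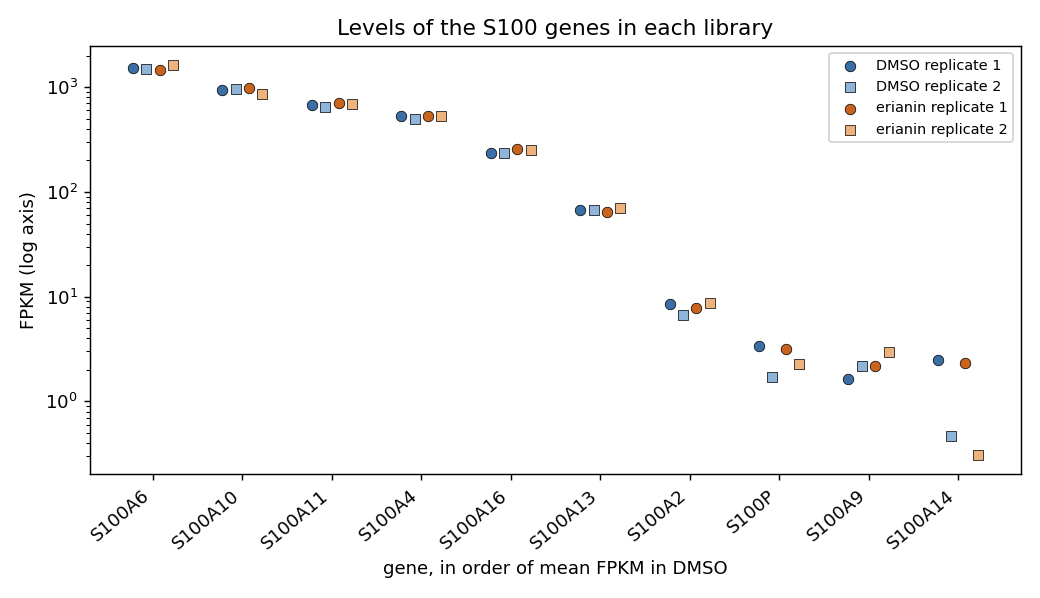
FPKM of each S100 gene (log axis) in the 4 libraries, with genes in order of their mean in DMSO. Blue points are DMSO and orange points erianin, circles replicate 1 and squares replicate 2. The first 6 genes keep within 1.15-fold over all libraries, and S100A14 spreads over 8.1-fold.

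S100A10 and S100A11 are the members known for binding annexins. S100A10, called p11, forms a heterotetramer with annexin A2 and needs no calcium for it. It was at 942.1 and 954.9 FPKM in DMSO and at 990.4 and 862.6 FPKM in erianin. The erianin libraries lay on either side of the DMSO libraries. On the CPM scale (counts scaled to a TMM-adjusted library size) the values were 708.5 and 721.7 in DMSO and 759.3 and 733.6 in erianin. There both erianin libraries were higher, so the order of the groups depends on the scale. The log2 fold change was 0.06 ± 0.09 (SE, edgeR quasi-likelihood, adjusted p = 0.809), with a 95% interval from 0.905-fold to 1.2-fold.

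S100A11, which binds annexin A1 and takes part in membrane repair, was at 676.5 and 653.2 FPKM in DMSO and at 714.9 and 690.1 FPKM in erianin. Both erianin libraries were above both DMSO libraries. In CPM the means were 420.7 ± 9.02 in DMSO and 476.2 ± 23 in erianin (SD, n = 2 each). The log2 fold change of 0.18 ± 0.09 (SE) did not pass (edgeR, adjusted p = 0.576), and its 95% interval ran from 0.977-fold to 1.31-fold.

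S100A6 and S100A4 are cytosolic members linked to growth and cell motility. S100A6, or calcyclin, which binds the ubiquitin ligase adaptor CACYBP, was at 1539 and 1490 FPKM in DMSO and at 1459 and 1617 FPKM in erianin. The erianin libraries held both the lowest and the highest value. Its log2 fold change was 0.13 ± 0.12 (SE, edgeR, adjusted p = 0.696), with a 95% interval from 0.908-fold to 1.31-fold. S100A4, or metastasin, binds the tail of nonmuscle myosin IIA. It was at 529.5 and 501.6 FPKM in DMSO and at 532.2 and 531.9 FPKM in erianin. Both erianin libraries were above both DMSO libraries, and DMSO replicate 1 lay closer to them than to DMSO replicate 2. The log2 fold change was 0.14 ± 0.10 (SE, edgeR, adjusted p = 0.623), with a 95% interval from 0.942-fold to 1.3-fold. Fibroblasts also express S100A4, and the sum of their 6 markers was highest in DMSO replicate 1, far below the level of S100A4. Their part in the S100A4 values was not tested, and in bulk RNA fewer cells of a type and less RNA per cell cannot be told apart.

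S100A16 and S100A13 are broadly expressed members, and S100A13 is known for its part in the release of FGF1 and interleukin 1 alpha. S100A16 was at 234.5 and 235.7 FPKM in DMSO and at 255.8 and 253.9 FPKM in erianin. Replicates lay close together and both erianin libraries were higher. Mean CPM was 282.2 ± 2.39 (SD, n = 2) in DMSO and 329.2 ± 24.2 (SD, n = 2) in erianin. The difference, 0.22 ± 0.10 (SE) on the log2 scale, had an unadjusted p of 0.0486 and an adjusted p of 0.575 (edgeR), the only member of the 10 under 0.05 before adjustment. Over all genes 8.1% were under 0.05 before adjustment. Once a fitted dependence on GC content and transcript length was taken out of every library, the S100A16 log2 fold change was 0.03.

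S100A13 was at 67.7 and 66.8 FPKM in DMSO and at 64 and 70.4 FPKM in erianin, so the erianin libraries enclosed the DMSO libraries. The log2 fold change was 0.08 ± 0.13 (SE, edgeR, adjusted p = 0.832). S100A13 is uncertain as a single gene. It shares 536 of 2216 exon bases with AL162258.1 on the same strand, and 235 with S100A1 on the opposite strand, and the strandedness of the counting is not given in the sources used here. AL162258.1 held 231 and 309 counts in DMSO and 280 and 712 in erianin, against 3422, 3123, 3082 and 3312 for S100A13. Among the other members, S100A6 shares 23 exon bases with an antisense gene. No other member had exon overlap with another gene, or at least 200 aligned bases at 95% identity with transcripts of another gene.

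S100A2, a nuclear member that binds p53 and is a known p53 target, was at 8.58 and 6.64 FPKM in DMSO and at 7.75 and 8.67 FPKM in erianin. The groups overlapped, and the DMSO libraries were farther apart than the group means. Its log2 fold change was 0.20 ± 0.22 (SE, edgeR, adjusted p = 0.753), with a 95% interval from 0.804-fold to 1.64-fold.

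The 3 lowest members include S100P, a known marker of pancreatic cancer, which signals through AGER and binds ezrin. In these SW1990 libraries S100P was low, at 118 and 57 counts in DMSO and 110 and 76 in erianin, or 3.37, 1.71, 3.19 and 2.29 FPKM. Counts were higher in replicate 1 of both groups, and the 95% Poisson intervals of the DMSO libraries, 97.7 to 141.3 and 43.2 to 73.9, did not overlap. Such intervals cover counting error only. The log2 fold change of 0.20 ± 0.43 (SE, edgeR, adjusted p = 0.887) had a 95% interval from 0.58-fold to 2.26-fold. A 2-fold increase of S100P lies within that interval and was not resolvable in these libraries.

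S100A9, the calprotectin subunit that pairs with S100A8 in neutrophils and monocytes, had 69 and 89 counts in DMSO and 91 and 121 in erianin. S100A8 itself had no row. In FPKM S100A9 was at 1.62 and 2.2 in DMSO and at 2.17 and 2.98 in erianin. The groups overlapped in FPKM, where DMSO replicate 2 was above erianin replicate 1. In CPM the values were 1.05 and 1.43 in DMSO and 1.43 and 2.18 in erianin, so DMSO replicate 2 and erianin replicate 1 were equal to these digits and the groups all but touched. The log2 fold change, 0.54 ± 0.39 (SE, edgeR, adjusted p = 0.626), was the largest of the 10 in size and had a 95% interval from 0.786-fold to 2.7-fold. It was 0.21 without erianin replicate 2, 0.34 without DMSO replicate 1 and 0.81 without erianin replicate 1. The 5 blood and myeloid markers with a value summed to between 0.3 and 0.54 FPKM, below S100A9 in every library. ITGAM, an integrin chain of myeloid cells, had 37 and 82 counts in DMSO and 80 and 62 in erianin, and CD14, a monocyte marker, had 28, 8, 12 and 16 in the same order. PTPRC, the leukocyte marker CD45, was listed at 0 in 3 of 4 libraries. The part of such cells in the S100A9 values was not tested.

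S100A14, an epithelial member next to S100A16, had 190 and 34 counts in DMSO and 179 and 23 in erianin. Replicate 1 was high and replicate 2 low in both groups, and within each replicate number the 95% Poisson intervals overlapped. The fitted log2 fold change of -0.08 had an SE of 0.90 (edgeR, adjusted p = 0.981), and its 95% interval ran from 0.222-fold to 4.02-fold. The value was 1.57 without DMSO replicate 1, -2.05 without erianin replicate 1 and -1.54 from the gene's largest row alone.

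**Figure D2:**
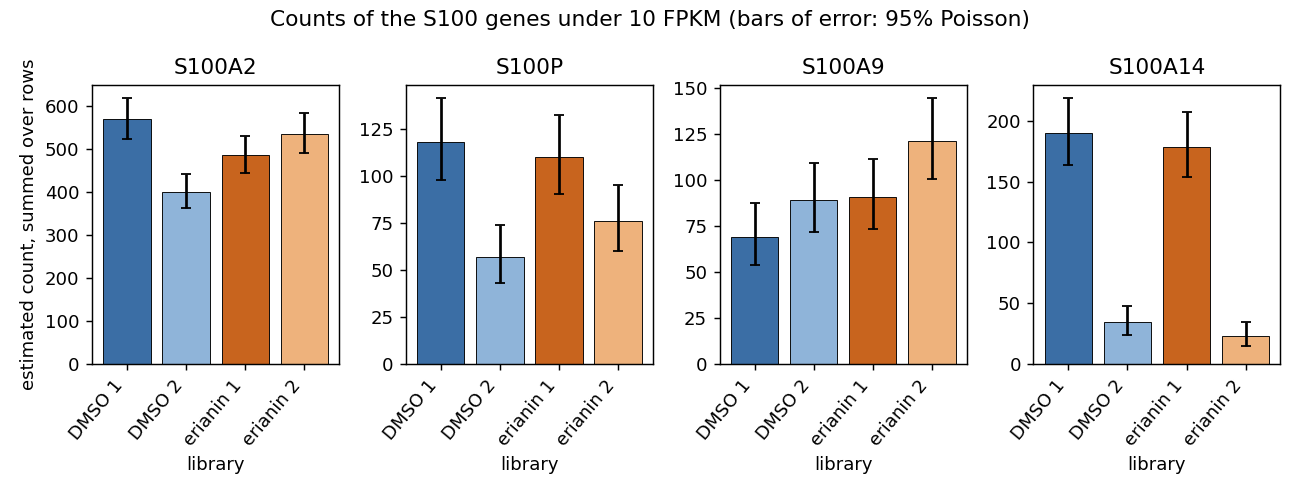
Estimated counts of the 4 members under 10 FPKM in each library, with 95% Poisson intervals as error bars. S100A14 stands at 190 and 179 counts in replicate 1 of DMSO and erianin and at 34 and 23 in replicate 2, while S100A9 is highest in erianin replicate 2.

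The tables hold from 1 to 6 rows for each member, without transcript names. The length that each row's count and FPKM imply was used to tell rows apart. S100A10 and S100A11 were nearly all in a single row, of 671 and 563 nt, with at least 99.6% of the gene's FPKM in each library. S100A6 had 92.7 to 92.9% in its 434 nt row. S100A4 had 65.3 to 73.1% in its 513 nt row and the rest in 4 rows of 537 to 755 nt, apart from a row with 4 counts in all. S100A13 was divided between a 579 nt row, with 52 to 64.1%, and a 710 nt row, with 30 to 41%. S100A16 was divided between a 1172 nt row, with 46.9 to 50.7%, and a 956 nt row, with 38.5 to 44.7%. DMSO and erianin overlapped in the share of the largest row of each of these 6 genes except S100A10, whose other rows held almost nothing. Some smaller shares did not overlap, and how often 2 against 2 libraries fail to overlap over the rows of all genes was not counted. The 956 nt row of S100A16 held 44.7 and 43.4% in DMSO and 38.5 and 41% in erianin. Its 1146 nt row held 5.86 and 5.85% against 8.46 and 7.26%. For S100A4 the 573 nt row held 10.1 and 8.1% against 10.8 and 13.3%. Its 566 nt row held 8.45 and 7.99% against 10.7 and 10.1%. The 2187 nt row of S100A13 held 3.68 and 3.07% against 2.76 and 2.36%. Some other minor rows of S100A6, S100A10 and S100A13 did not overlap either.

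Single rows departed from this in single libraries. The 948 nt row of S100A16 held 770 counts in erianin replicate 1 and 54, 38 and 6 in DMSO replicates 1 and 2 and erianin replicate 2. The 1057 nt row of S100A14 held 135 counts in erianin replicate 1, where it was 75.2% of the gene's FPKM, and 9, 0 and 0 in the same other libraries. In DMSO replicate 1 the 1032 nt row of S100A14 held 178 of the 190 counts. The high S100A14 totals of the libraries numbered 1 thus came from different rows. How the counting divides reads among rows is not given in the sources used here, and its part in these values was not tested.

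**Figure D3:**
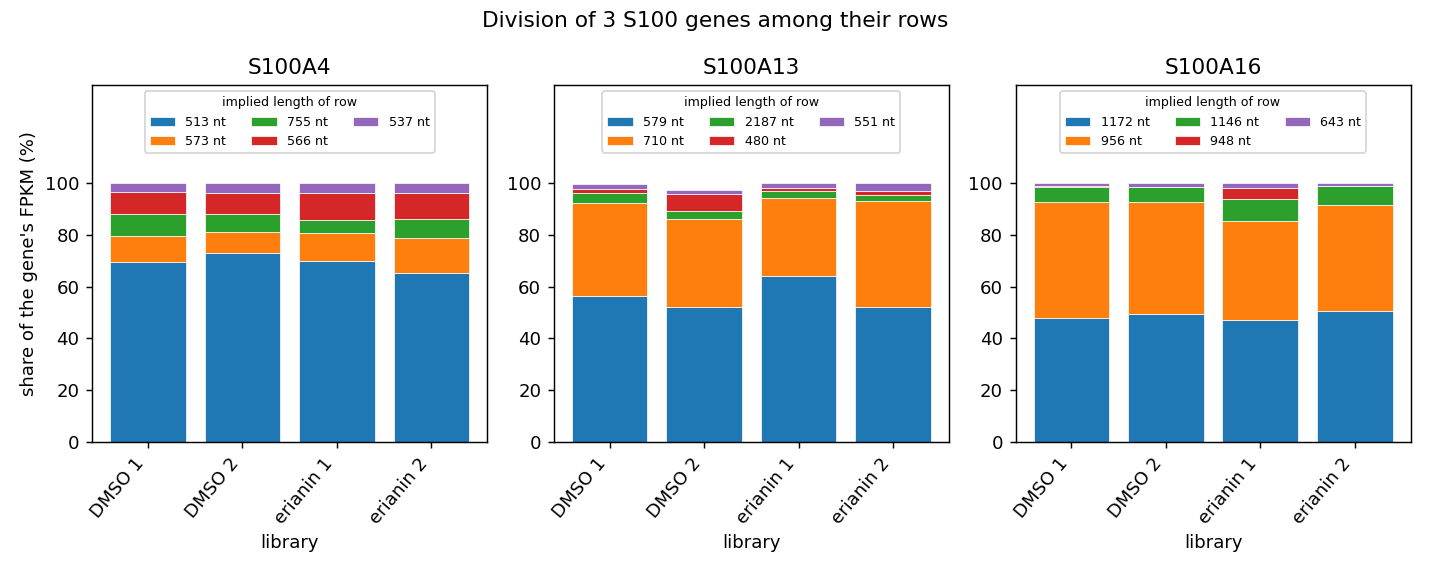
Share of each gene's FPKM held by its rows, in percent, for S100A4, S100A13 and S100A16 in each library, for rows with at least 100 counts in all, so stacks may end below 100%. Colours are rows by implied length in nt. The main rows keep similar shares in all 4 libraries, and the 948 nt row of S100A16 stands out at 4.37% in erianin replicate 1.

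The comparison of erianin with DMSO asked whether S100 transcripts differ after exposure to the compound. None of the 10 members passed an adjusted p of 0.05 with edgeR, against 0.041% of all genes (0.0117% as higher), and none passed with DESeq2 or limma-voom. At an unadjusted p under 0.05 there was 1 member with each of these tools. The fitted log2 fold change was above 0 in 9 of 10 members with a median of 0.16, against 48.7% of all genes and a median of -0.01. Over genes with an average log2 CPM of 3 or more, a level that S100P, S100A9 and S100A14 did not reach, the median was 0.04. The ductal epithelial markers had 6 of 8 above 0 and a median of 0.20, with KRT8, KRT18, KRT7 and KRT19 at 0.14 to 0.24 and higher in both erianin libraries in CPM and FPKM. Their part in the members' values was not tested. When CPM was scaled by library totals and no TMM factors, 7 of 10 were above 0 and the median was 0.06, a setting that moved all genes by -0.10 and turned S100A10 and S100A13 below 0. With the GC and length trend removed, 4 of 10 were above 0 and the median was -0.03, and S100A4, S100A6, S100A10, S100A11 and S100A13 turned below 0. The members had a median GC content of 55.2%, against 49.5% for all genes tested. For them the fitted trend differed between group means by 0.12 to 0.25 on the log2 scale. The trend was fitted to these same libraries, so its removal would also take out a response to erianin that follows GC content or length. Such a response and a technical trend cannot be told apart in this design. The part of the trend in the members' values was not tested. By library, the fitted trend over the members was -0.15 to -0.081 in DMSO replicate 1, -0.11 to -0.035 in DMSO replicate 2, -0.059 to 0.0072 in erianin replicate 1 and 0.12 to 0.31 in erianin replicate 2. Erianin replicate 2 thus stood apart, and erianin replicate 1 lay close to DMSO replicate 2.

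Both erianin libraries were above both DMSO libraries in CPM for 5 of 10 members (S100A4, S100A9, S100A10, S100A11 and S100A16), against 21.7% of all genes. In FPKM this held for 3 of 10 (S100A4, S100A11 and S100A16), against 13.2%. No member had both erianin libraries below both DMSO libraries on either scale, against 24.4% of all genes in CPM and 28.4% in FPKM. Over the members the median log2 CPM, less the mean of the 4 libraries, was -0.03 and -0.11 in DMSO and 0.01 and 0.17 in erianin. Erianin replicate 2 was the highest of the 4 and erianin replicate 1 lay nearer to DMSO replicate 1 than to it. Without erianin replicate 1, 4 of 10 members passed as higher (S100A4, S100A6, S100A11 and S100A16, edgeR adjusted p from 0.0124 to 0.0395), against 17.5% of all genes in either direction and 7.3% as higher. Erianin replicate 2 is then the lone sample of its group and is assumed to vary like the DMSO libraries. For the 6 members above 50 FPKM the 95% intervals of the fit with all libraries lay between 0.856-fold and 1.36-fold.

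**Figure D4:**
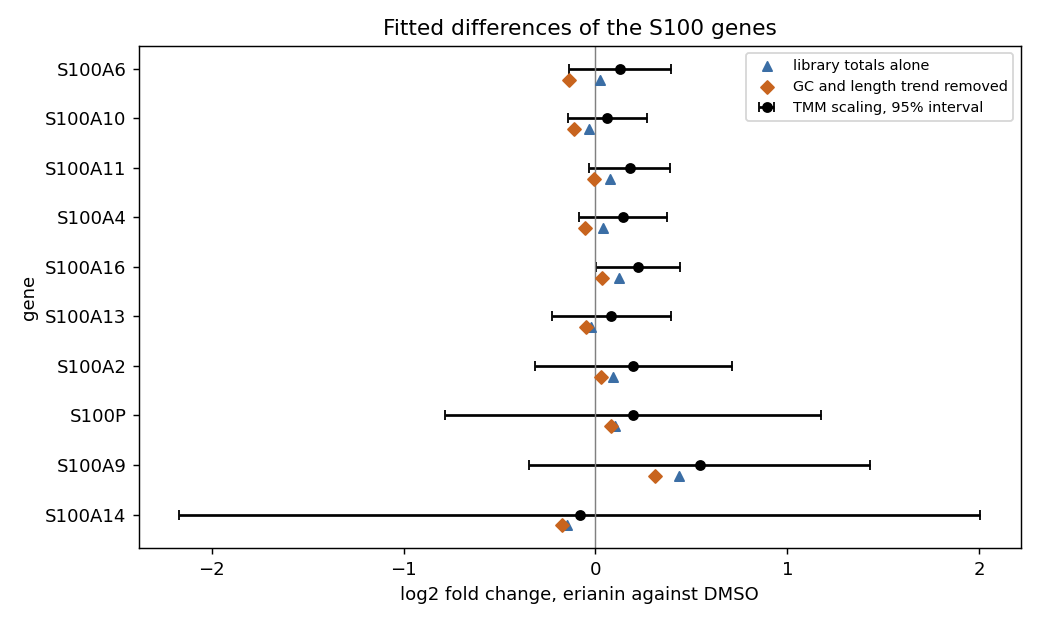
Log2 fold change of erianin against DMSO for each S100 gene. Black points are the edgeR estimates with TMM scaling and their 95% intervals, blue triangles use library totals alone, and orange diamonds have the GC and length trend removed. Intervals are narrow for the 6 abundant genes and widest for S100A14, from -2.17 to 2.01, and the orange diamonds of 6 genes lie below 0.

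Among the other S100 genes only S100A3 was above 1.04 FPKM in any library. S100A3, a cysteine-rich member known from hair cuticle, was at 41.4 and 39.3 FPKM in DMSO and at 40.2 and 43.1 FPKM in erianin, above S100A2, S100P, S100A9 and S100A14. Its log2 fold change was 0.14 ± 0.14 (SE, edgeR, adjusted p = 0.716). S100A5 and S100A1 had mean levels of 0.725 and 0.5 FPKM over the 4 libraries. Of 11 other family genes, 5 had a row and 4 were tested, of which none passed (edgeR, 0 at an unadjusted p under 0.05), with 2 above and 2 below 0. The fused-type S100 genes with a row, CRNN (cornulin), TCHH (trichohyalin), FLG (filaggrin) and HRNR (hornerin), summed to 0.03 FPKM or less in each library and were not tested. Among the other protein-coding genes from S100A10 to S100A13 and 100 kb to each side, 14 had rows and 9 were tested, of which 3 were above 0 and none passed (edgeR, 0 at an unadjusted p under 0.05). Their median log2 fold change was -0.08. The 14 genes include S100A3, S100A5, S100A1 and the fused-type genes above, and S100A3 is among the 3 above 0. ILF2, a subunit of a double-stranded RNA-binding complex, was the highest of them at a mean of 62.6 FPKM, and SNAPIN, a SNARE-associated protein, had a mean of 29.5 FPKM.

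Intracellular partners of S100 proteins did not pass either (0 of 19, edgeR). Of them 8 were above 0 and 11 below, and the median was -0.03 on the log2 scale. At an unadjusted p under 0.05 (edgeR) there were 4 of 19, against 8.1% of all genes. They were AHNAK, IQGAP1, MYH10 and MDM2, all below 0 and named after their values had been seen. The 19 partners had a median GC content of 44%, against 49.5% for all genes tested. The part of the GC and length trend in their values was not tested. ANXA2, the annexin that binds S100A10, was at 482.1 and 433.9 FPKM in DMSO and at 396.2 and 352.4 FPKM in erianin. Both erianin libraries were lower in FPKM. In CPM ANXA2 was at 825.5 and 728.9 in DMSO and at 735.1 and 695 in erianin, which overlap, and its log2 fold change was -0.12 ± 0.10 (SE, edgeR, adjusted p = 0.669). The ratio of S100A10 to ANXA2 in FPKM was 1.95 and 2.2 in DMSO and 2.5 and 2.45 in erianin. The groups did not overlap, but an exact two-sided permutation test of 2 against 2 cannot give a p below 0.333, which is the value it gave. In counts, which are not corrected for length, the ratio was 0.858 and 0.99 in DMSO and 1.03 and 1.06 in erianin. S100A10 has a GC content of 56.2% and ANXA2 one of 44%. The part of the GC and length trend in the ratio was not tested. S100A11 was at 6.46 to 6.68 times the FPKM of ANXA1, and the groups overlapped.

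**Figure D5:**
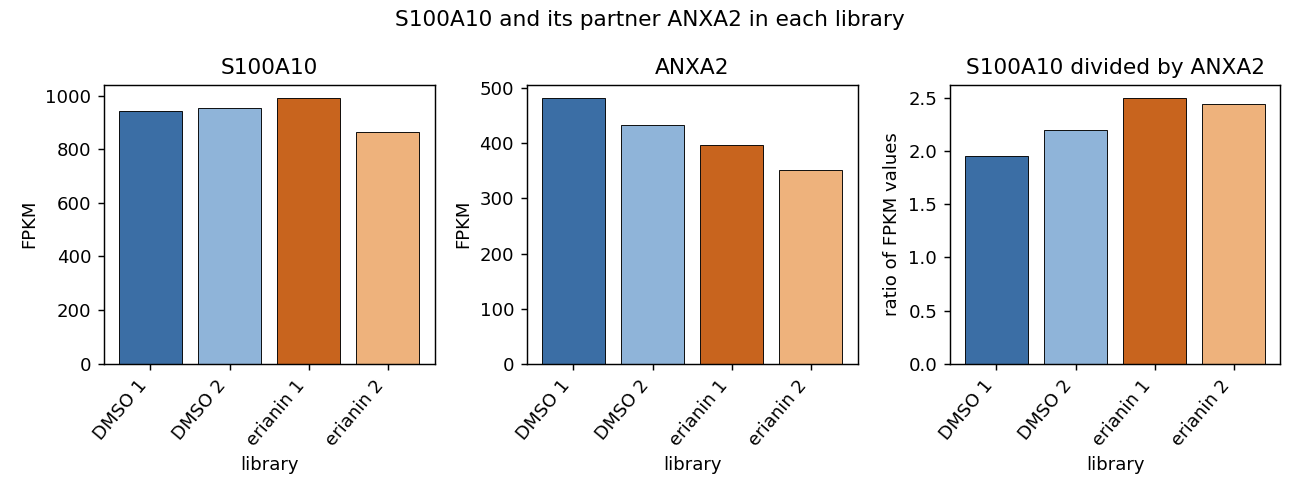
FPKM of S100A10 and ANXA2 and their ratio in each library, on axes that start at 0. ANXA2 FPKM is lower in both erianin libraries (CPM overlaps), at 396.2 and 352.4 FPKM, and the ratio is 1.95 and 2.2 in DMSO against 2.5 and 2.45 in erianin.

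ANXA6 and ANXA5, calcium-dependent membrane-binding annexins, had mean levels of 208.5 and 200.6 FPKM, with log2 fold changes of 0.16 ± 0.11 and -0.03 ± 0.10 (SE). Of the receptors and surface partners, 7 were tested and none passed (edgeR, 1 at an unadjusted p under 0.05), 3 were above 0 and 4 below, and the median was -0.08 on the log2 scale. BSG, or basigin, a receptor for S100A9, was at 927.3 and 958.4 FPKM in DMSO and at 1005 and 998.9 FPKM in erianin, with a log2 fold change of 0.20 ± 0.09 (SE, edgeR, adjusted p = 0.575). The syndecans SDC4 and SDC1 had means of 35.4 and 31.7 FPKM. AGER had a mean of 0.848 FPKM and TLR4, the receptor of S100A8 and S100A9 complexes, one of 0.445 FPKM, so the classical receptors were at the low end while basigin was abundant.

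The plasminogen system, which S100A10 and annexin A2 are known to assist at the cell surface, had 6 of 7 tested genes above 0, none past the threshold (edgeR, 0 at an unadjusted p under 0.05), and a median log2 fold change of 0.10. ENO1, a glycolytic enzyme that also binds plasminogen, was at a mean of 3184 FPKM, and PLAU and PLAT, the urokinase and tissue plasminogen activators, were at means of 44.1 and 42.3 FPKM. Of 25 other EF-hand genes tested, 12 were above 0, 13 were below 0 and none passed (edgeR, 3 at an unadjusted p under 0.05), with a median of -0.01. The most abundant were the myosin light chain MYL6, the calpain subunit CAPNS1 and the calmodulin gene CALM2, at means of 2285, 593.3 and 406.7 FPKM. Their log2 fold changes were 0.13 ± 0.12, 0.20 ± 0.10 and 0.24 ± 0.11 (SE).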

How the data were processed

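The data are RNA-seq of SW1990 cells, 2 libraries with DMSO and 2 with erianin, grouped by sample title. The authors' table gives estimated counts, unscaled and whole, in 107429 rows for 25798 gene IDs, and rows of an ID were summed. The FPKM values were deposited by the authors in the same rows. Per the submitters' processing notes the tools included fastp, STAR, StringTie 2.2.1 and featureCounts 2.0.1 with GRCh38. Their roles, the annotation and the strandedness are not stated there or in the labels. The planned count test had assumed whole reads, and it was kept for estimated counts.

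The members and gene lists were chosen with earlier results of these data known. The test was edgeR 4.0.16 (R 4.3.3) with TMM factors, filterByExpr (minimum count 10), the group as the only term (2 residual degrees of freedom) and a quasi-likelihood F test. P-values were adjusted by Benjamini-Hochberg over 17090 genes at 0.05. The code was checked on counts simulated with the fitted dispersions, without a GC trend or a library set apart. How the test fares on libraries like these was not examined that way. Each SE was obtained from the fitted change and its F statistic (|change| / √F), and 95% intervals use the test's t distribution. The rule for named genes took all 10 members and, from each list of S100 relatives, partners, receptors, plasminogen, EF-hand and 1q21 genes, any gene past the threshold and the 3 of highest mean FPKM. It did not cover the marker lists. Markers and any other gene were named after their values were seen. Symbols matched 25779 IDs. Positions, GC content and length came from GENCODE 29, which held 97.8% of genes tested. Implied row length is count divided by FPKM, scaled in 421 to 440 genes with 1 row and 1 transcript. Shared sequence was sought with BLAST+ 2.17.0. The GC and length trend of each library was fitted with natural splines of 5 degrees of freedom, using genes whose average log2 CPM was 3 or more. Alternatives were other scalings and filters, DESeq2 1.42.0, limma 3.58.1 on voom and on log2(FPKM + 1), the largest row of a gene, a replicate block and each library left out.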

Additional observations from a re-analysis of the deposited data

How the results depend on the processing

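The count of members past the threshold was 0 in the fit with TMM scaling and in every alternative but 1, and leaving out each library gave 0 to 4, the 4 without erianin replicate 1. Of 150 member values over 15 alternatives, 131 kept direction and side of the threshold, 15 reversed and 4 newly passed. S100A9 and S100A16 kept their direction in 15 of 15, with S100A9 at 0.21 to 0.81 when each library was left out, 0.31 with the GC and length trend removed and 0.29 on FPKM. The members' median log2 fold change was 0.16, and 0.060 with library totals alone, -0.028 with the GC and length trend removed, 0.063 with limma on log2(FPKM + 1), and 0.09 to 0.22 with each library left out. With library totals alone S100A10 was at -0.036 and S100A13 at -0.021. With the trend removed S100A4 was at -0.052, S100A6 at -0.14, S100A10 at -0.11, S100A11 at -0.0078 and S100A13 at -0.047. On FPKM S100A10 was at -0.037 and S100A13 at -0.0026. With each library left out, S100A14 ran from -2.05 to 1.57, S100A2 from -0.00070 to 0.43 and S100P from -0.21 to 0.76. S100A14 was above 0 without DMSO replicate 1 (1.57) or erianin replicate 2 (0.71), and S100A2 and S100P were below 0 without DMSO replicate 2. Without erianin replicate 2 S100A6 was at -0.026 and S100A13 at -0.073. The causes were not tested.

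Over all genes 7 passed, 2 higher and 5 lower. The count was 2 with library totals alone, 24 with DESeq2, 2 with limma on log2(FPKM + 1) and 24 to 3166 with each library left out (the DMSO libraries gave 62 and 73 when left out, erianin replicate 1 gave 3166 and erianin replicate 2 gave 24). It was 0 with limma-voom (1673 at an unadjusted p under 0.05) and 0 with edgeR on the largest row of each gene (772). With the replicate number as a block, 334 genes passed, 66 higher and 268 lower, and no member did (median log2 fold change 0.16, lowest edgeR adjusted p = 0.309). The labels do not say that a number pairs samples. The difference of replicate 1 less replicate 2 in DMSO and in erianin had a Pearson r of 0.22 and a Spearman rho of 0.26 over 7986 genes, none of them an independent replicate. With 2 libraries a group, 2-fold increases of S100P, S100A9 and S100A14 lie within the 95% intervals. For S100A14 in both groups, and for S100P and S100A2 in DMSO, the replicates differed by more than their Poisson intervals, so counting error is not the whole of that spread.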

Other observations

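The pattern of S100A14, with replicate 1 far above replicate 2 in both groups, was looked for in the other genes after the S100A14 values had been seen. Among 12583 genes tested with at least 100 counts in a library, 11 had a CPM in replicate 1 at least 4-fold that of replicate 2 in both groups, S100A14 included. In 4 genes the reverse held. Over all 17090 genes tested, with low counts included, the numbers were 76 and 61. Of the other 10 genes, 5 carry hyphenated names that join 2 genes, such as MIA-RAB4B and RPL17-C18orf32, and 5 have no symbol other than an Ensembl ID. S100A14 is the only one of the 11 with an ordinary symbol of its own.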
